A study of Schizosaccharomyces pombe with 29 samples.

Results

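The nucleolar ribosome assembly genes described here are the rows of the RNA-seq table whose name is utp, nop, nog or noc followed by a digit, with antisense rows left out. They are 32 of the 7016 rows: 17 named utp, 11 named nop, 1 named nog and 3 named noc. Another 4 rows are antisense transcripts of such genes and were left out. The rule used names alone and no measured value. All 32 were matched by name to genes of the RefSeq assembly ASM294v3.

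Ribosomes are put together in the nucleolus, where RNA polymerase I makes a long precursor rRNA that is folded, modified, cut and joined with ribosomal proteins. The proteins named Utp join the U3 snoRNP and the precursor to form the small subunit processome, which yields the small subunit. Nog1, Noc1, Noc3 and many of the Nop proteins act on the precursor of the large subunit, Noc4 acts on that of the small subunit, and others are core parts of the snoRNPs that guide rRNA modification. In yeasts these genes are known to be regulated as one group with growth, apart from the genes of the ribosomal proteins themselves.

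The RNA was measured by RNA-seq in 8 libraries of Schizosaccharomyces pombe (fission yeast) in 3 groups. The WT group (3 libraries) has no listed mutation. The pRnhA group (3 libraries) overexpresses rnhA, the RNase H gene of Escherichia coli, and the rnh1∆rnh201∆ group (2 libraries) lacks rnh1 (RNase H1) and rnh201 (the catalytic subunit of RNase H2). RNase H degrades the RNA strand of RNA-DNA hybrids, so the strains carry more and less of this activity than WT by genotype. All cells were grown in PMG, a minimal medium, and moved to 34 °C for 3 hours, so every comparison here is between cells held at that temperature. The labels name neither the promoter behind rnhA nor whether libraries came from separate cultures or clones. The p-values therefore measure the spread between these libraries, which may be technical in part. Within each group that spread also holds a difference in mating-type transcript, described below. The level of rnhA was not examined here, and the 18 DRIPc-seq and 3 small RNA samples of the series were not analysed here.

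Values are the normalized counts of the authors' deposited table, rounded by them to 2 significant digits. They summed to between 8392168 and 9455805 per library, and the sequencing depth is unknown. The normalized count of rnh1 was 36 and 23 in the rnh1∆rnh201∆ libraries and 290 to 320 in the other 6, and that of rnh201 was 7 and 12 against 300 to 460. The libraries also differed in mating-type transcript: mat1-Mc dominated in 5, and mat2-Pc in WT replicate 3, pRnhA replicate 3 and rnh1∆rnh201∆ replicate 1. WT replicate 1 stood apart for the assembly genes: it was the highest of the 3 WT libraries for 30 of the 32, against 36.3% of all genes tested. Results are therefore given with and without it, and leaving it out raises the differences of these 30 genes from WT by construction.

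The regulatory sequence of these genes was compared with that of the ribosomal protein genes, because both classes are described below. In fission yeast the HomolD box, with the core CAGTCAC, is the known core promoter element of ribosomal protein genes. In the 300 bases that run from 250 before to 50 after the annotated start of each gene (RefSeq, ASM294v3), this core was found on either strand in 89.2% of 139 ribosomal protein promoters. It was found in 2 of the 32 assembly gene promoters (6.2%), near the 4.7% of all 5112 protein-coding promoters. The HomolE core CCCTACCCT was in 34.5% of ribosomal protein promoters, 0 of 32 assembly gene promoters and 1.5% of all. Of the elements known from assembly genes of budding yeast, RRPE (AAAAATTTT) was in 1 of 32 (3.1%) against 5.1% of all genes, and the PAC core GATGAG was in 3 of 32 (9.4%) against 8.6%. Of the ribosome assembly genes with other names described further on, 75 had a promoter matched by name. In these 75, RRPE was in 9 (12%), the PAC core in 6 (8%), the HomolD core in 2 (2.7%) and the HomolE core in 0. Searches covered both strands, and no core searched contains another. The assembly genes with a HomolD core were nog1 and nop10. They are shown on the gene's strand, 5′ to 3′, with the core in capitals, beside the alphabetically first rpl and rps gene that holds one:
nog1: gttaacagaagGTGACTGttctacctatac
nop10: agcaacaaaaaCAGTCACctgaagttgagg
rpl1001: cctcatcctgtGTGACTGttttttgggtgg
rps001: ttgcaagaaggCAGTCACagtttcaggtct
In ASM294v3 these stretches are chrII:1239278-1239307 (minus strand) for nog1, chrI:1635570-1635599 (minus strand) for nop10, chrII:2081414-2081443 (plus strand) for rpl1001 and chrII:2778838-2778867 (plus strand) for rps001. The core begins at position -88 in nog1, -84 in nop10 and -56 in both ribosomal protein genes, counted from the gene start. A match is a description of letters and not evidence of a bound factor.

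The assembly genes were all well measured, at normalized counts of 320 to 4800 in every library, so all 32 passed the filter on low values. Per kilobase of coding length, averaged over the 8 libraries, nop10 had the highest level at 4442 normalized counts and utp13 the lowest at 199. The coding sequence of nop10 is 195 bases long and that length leaves out the untranslated parts, so its level per kilobase is overstated. Of the other snoRNP core genes, nop58 stood at 1834 per kilobase. In the UtpA group levels ran from 452 for utp4 to 770 for utp8, and in the UtpB group from 199 for utp13 to 679 for utp6. Among the remaining small subunit genes they ran from 385 for utp16 to 981 for nop14. Large subunit genes named nop ran from 381 for nop8 to 1421 for nop16, while noc1 stood at 663 and nog1 at 1296. Within WT, nop12 had the widest spread of the 32 (SD 0.31 on the log2 scale) and nop8 the narrowest (SD 0.048).

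**Figure D1:**
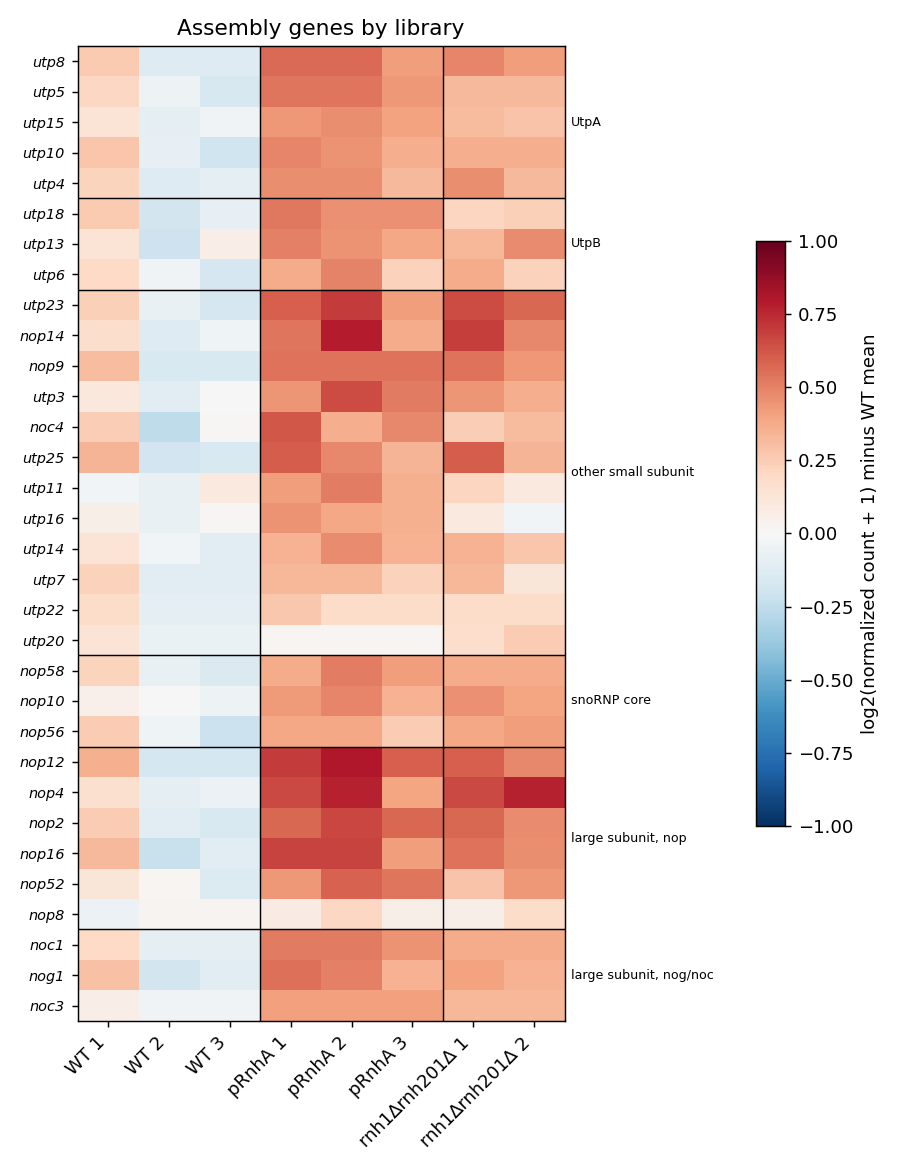
Each of the 32 assembly genes (rows, grouped by role) in each of the 8 libraries (columns), coloured by log2(normalized count + 1) minus the mean of the 3 WT libraries. The pRnhA and rnh1∆rnh201∆ columns are mostly red, WT replicate 1 is pale red, and utp20, utp22 and nop8 stay pale across the row.

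Overexpression of RnhA went with a shared rise of the assembly genes. Of the 32, 26 were higher in pRnhA than in WT at a limma adjusted p under 0.05 (Benjamini-Hochberg over 6456 genes), and 0 were lower. Over all genes tested 20.2% were called, 8.88% higher and 11.4% lower. With libraries scaled to equal totals this split turned to 19.5% higher and 5.81% lower, and 30 of the 32 assembly genes were called higher and 0 lower. The median log2 fold change of the 32 genes was 0.46, or 1.37-fold, against 0.002 for all genes tested, with a range of 0.02 to 0.70. All 32 were above 0, against 50.5% of all genes. For 27 of the 32, every pRnhA library was above every WT library, against 15.6% of all genes. The authors' deposited table has 30 of the 32 past an adjusted p of 0.05 and higher in pRnhA, against 14% of its genes with a value. Fold changes are on the log2(normalized count + 1) scale, and a fold is relative to the other transcripts of the library, so a change in total RNA per cell cannot be seen.

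The summed normalized count of the 32 genes was 44760, 36390 and 36080 in WT replicates 1 to 3, 52540, 53870 and 49500 in pRnhA, and 51020 and 49690 in rnh1∆rnh201∆. Each pRnhA and rnh1∆rnh201∆ library thus lay above the highest WT library. As a share of all normalized counts, the genes took 0.427% ± 0.040 of a WT library (SD, n = 3). The share was 0.614% ± 0.030 under pRnhA (SD, n = 3) and 0.575% ± 0.023 for rnh1∆rnh201∆ (SD, n = 2).

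Single libraries and settings of the fit changed how many of these genes passed, while the size of the change moved less. With no filter on low values 20 of the 26 were called, with 13.8% of all genes. A fit of the WT and pRnhA libraries alone called 22, with 14.2% of all genes. Leaving out rnh1∆rnh201∆ replicate 1 or 2 also gave 22, with 14.3% and 14.2% of all genes. Without pRnhA replicate 2, 4 of the 26 were still called (noc3, nop10, utp3 and utp15), with 3.28% of all genes called and a median of 0.45. Without WT replicate 2 the count was 10, with 6.13% of all genes called, and without pRnhA replicate 1 it was 11, with 6.32%. Without WT replicate 3 it was 17, with 12.1% of all genes. Without WT replicate 1 it rose to 30, with 33.6% of all genes, and the median of the 32 rose to 0.58. Same-numbered WT and pRnhA libraries deviated together, but so did differently numbered ones that share a mating-type transcript. A fit of the 6 WT and pRnhA libraries with the replicate number as a block called 1 of the 32 (noc3) and 2.09% of all genes. In that fit 30 of the 32 and 2091 of all 6456 genes had an unadjusted p under 0.05. Among the libraries with mat1-Mc limma called 0 of the 32 and 0 of all genes, with 18 of the 32 and 1509 of all genes at an unadjusted p under 0.05. The median was 0.45 there, with 31 of 32 above 0. In the pair with mat2-Pc, 1 library per group and no test, all 32 were higher in pRnhA by a median of 0.47.

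The large subunit factors named nop included the largest rises. The count of nop12, an RNA-binding protein that in budding yeast acts in maturation of the large subunit rRNA, was 1100, 760 and 760 in WT, 1400, 1500 and 1300 in pRnhA, and 1300 and 1200 in rnh1∆rnh201∆. WT did not overlap with either strain, although WT replicate 1 was well above the other WT libraries. The log2 fold change of nop12 in pRnhA was 0.70 (SE 0.14, limma adjusted p 0.0143). The count of nop4, another RNA-binding factor, was 850, 710 and 730 in WT, 1200, 1300 and 1000 in pRnhA, and 1200 and 1300 in rnh1∆rnh201∆. Here too all WT libraries were lowest, and the log2 fold change in pRnhA was 0.61 (SE 0.11, limma adjusted p 0.0102).

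The rRNA methyltransferase gene nop2 was at 1200, 940 and 910 in WT, 1500, 1600 and 1500 in pRnhA, and 1500 and 1400 in rnh1∆rnh201∆. It was 1.52-fold higher in pRnhA (log2 0.60, limma adjusted p 0.00861). The ribosome biogenesis gene nop16 was at 860, 590 and 640 in WT and at 1100, 1100 and 920 in pRnhA (log2 0.59, limma adjusted p 0.0231). Without WT replicate 1, their highest WT library, the log2 fold changes of nop12 and nop16 were 0.88 and 0.75. For nop52, whose budding yeast counterpart is the large subunit factor Rrp1, the counts were 420, 390 and 350 in WT, 520, 580 and 560 in pRnhA, and 470 and 520 in rnh1∆rnh201∆. It rose in pRnhA by 0.52 (SE 0.09, limma adjusted p 0.00861).

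The sixth gene of this group, nop8, did not pass. It was at 500, 530 and 530 in WT, 550, 600 and 540 in pRnhA, and 540 and 590 in rnh1∆rnh201∆. WT did not overlap with either strain, yet the difference in pRnhA was 0.11 (95% interval -0.05 to 0.28, limma adjusted p 0.284). Here WT replicate 1 was the lowest library.

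The GTPase gene nog1 and the nucleolar complex genes noc1 and noc3 act on the large subunit precursor, and all 3 rose in pRnhA. The count of noc3 was 1500, 1400 and 1400 in WT, 1900 in each pRnhA library and 1800 in both rnh1∆rnh201∆ libraries. Its replicates were the most even of the called genes, and its log2 fold change in pRnhA was 0.41 (SE 0.05, limma adjusted p 0.00404). It was called in every alternative fit except the one limited to mat1-Mc libraries. The count of noc1 was 1600, 1300 and 1300 in WT, 2000, 2000 and 1900 in pRnhA and 1800 in both rnh1∆rnh201∆ libraries (log2 0.50 in pRnhA, limma adjusted p 0.00845). The count of nog1 was 2500, 1800 and 1900 in WT and 3000, 2900 and 2600 in pRnhA (log2 0.47, limma adjusted p 0.0298). WT replicate 1 came close to the lowest pRnhA library for nog1.

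The UtpA subcomplex, known in budding yeast to bind the precursor rRNA early, was represented by utp4, utp5, utp8, utp10 and utp15, and all 5 rose in pRnhA, by 0.42 to 0.51. The count of utp8 was 1700, 1300 and 1300 in WT and 2100, 2100 and 1900 in pRnhA (log2 0.51, limma adjusted p 0.016). The count of utp5 was 1200, 1000 and 930 in WT and 1500, 1500 and 1400 in pRnhA (log2 0.50, limma adjusted p 0.0106). Of the 4 antisense rows left out by the rule, only utp5-antisense-1 is described here, and it was chosen after its values were seen. That row was at 81, 93 and 130 in WT and at 44, 41 and 28 in pRnhA (log2 -1.40, limma adjusted p 0.01). Whether the authors' counting used strand is not stated, and 29 of the 32 genes overlap an annotated gene on the other strand in ASM294v3, so reads of such partners may have been counted in both rows.

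From the UtpB subcomplex, utp6, utp13 and utp18 also rose in pRnhA, all 3 with groups that did not overlap. The count of utp13 was 420, 330 and 400 in WT, 540, 520 and 500 in pRnhA, and 480 and 530 in rnh1∆rnh201∆ (log2 0.45 in pRnhA, limma adjusted p 0.0198). The count of utp6 was 980, 830 and 760 in WT and 1100, 1200 and 1000 in pRnhA. This was the call nearest to the threshold (log2 0.36, limma adjusted p 0.044), and utp6 lost it in 11 of the 19 alternative fits.

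Of the 12 other small subunit genes, 8 rose in pRnhA. The count of utp23, whose budding yeast counterpart acts in early small subunit processing, was 610, 490 and 460 in WT, 780, 840 and 690 in pRnhA, and 810 and 770 in rnh1∆rnh201∆. It was 1.49-fold higher in pRnhA (log2 0.57, SE 0.12, limma adjusted p 0.0148). The count of nop14, the partner of noc4 in budding yeast, was 2100, 1700 and 1800 in WT, 2700, 3200 and 2400 in pRnhA, and 3000 and 2600 in rnh1∆rnh201∆ (log2 0.56 in pRnhA, limma adjusted p 0.0178). Neither gene's WT libraries reached those of a mutant strain.

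The RNA-binding factor gene nop9 was at 1100, 800 and 800 in WT and at 1300 in each pRnhA library (log2 0.55, limma adjusted p 0.0179). The gene utp3 was at 1500, 1300 and 1400 in WT, 1900, 2200 and 2000 in pRnhA, and 1900 and 1800 in rnh1∆rnh201∆ (log2 0.54 in pRnhA, SE 0.08, limma adjusted p 0.00559). The remaining called genes of this group were noc4, utp11, utp14 and utp16, with log2 fold changes of 0.39 to 0.49.

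In this group utp7, utp20, utp22 and utp25 did not pass, and they are named here because of that, after their values were seen. The gene utp20, which encodes a very large component of the processome, was at 3700, 3200 and 3200 in WT, 3400 in each pRnhA library, and 3800 and 4000 in rnh1∆rnh201∆. Its pRnhA libraries fell between the WT libraries, with a log2 difference of 0.02 (95% interval -0.14 to 0.18, limma adjusted p 0.882). The gene utp22 was at 1700, 1400 and 1400 in WT and 1800, 1700 and 1700 in pRnhA (log2 0.21, limma adjusted p 0.0943), so WT replicate 1 reached the pRnhA range. The differences of utp25 and utp7 were 0.48 and 0.30 (limma adjusted p 0.0538 and 0.0754), and in both genes WT replicate 1 was level with the lowest pRnhA library. Without WT replicate 1, 30 of the 32 assembly genes and 33.6% of all genes were called.

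Among the snoRNP core genes, nop10 (box H/ACA snoRNPs) and nop58 (box C/D snoRNPs) rose in pRnhA. The count of nop10 was 740, 710 and 690 in WT, 960, 1000 and 910 in pRnhA, and 980 and 940 in rnh1∆rnh201∆ (log2 0.42 in pRnhA, SE 0.06, limma adjusted p 0.0056). The 3 WT libraries of nop10 lay close together, WT replicate 1 included. The count of nop58 was 2700, 2200 and 2100 in WT and 3000, 3300 and 3100 in pRnhA (log2 0.43, limma adjusted p 0.0181). The other box C/D core gene, nop56, was at 4300, 3500 and 3100 in WT and 4700, 4700 and 4300 in pRnhA. It had a log2 difference of 0.34 that was not called (limma adjusted p 0.0622), with WT replicate 1 level with the lowest pRnhA library.

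**Figure D2:**
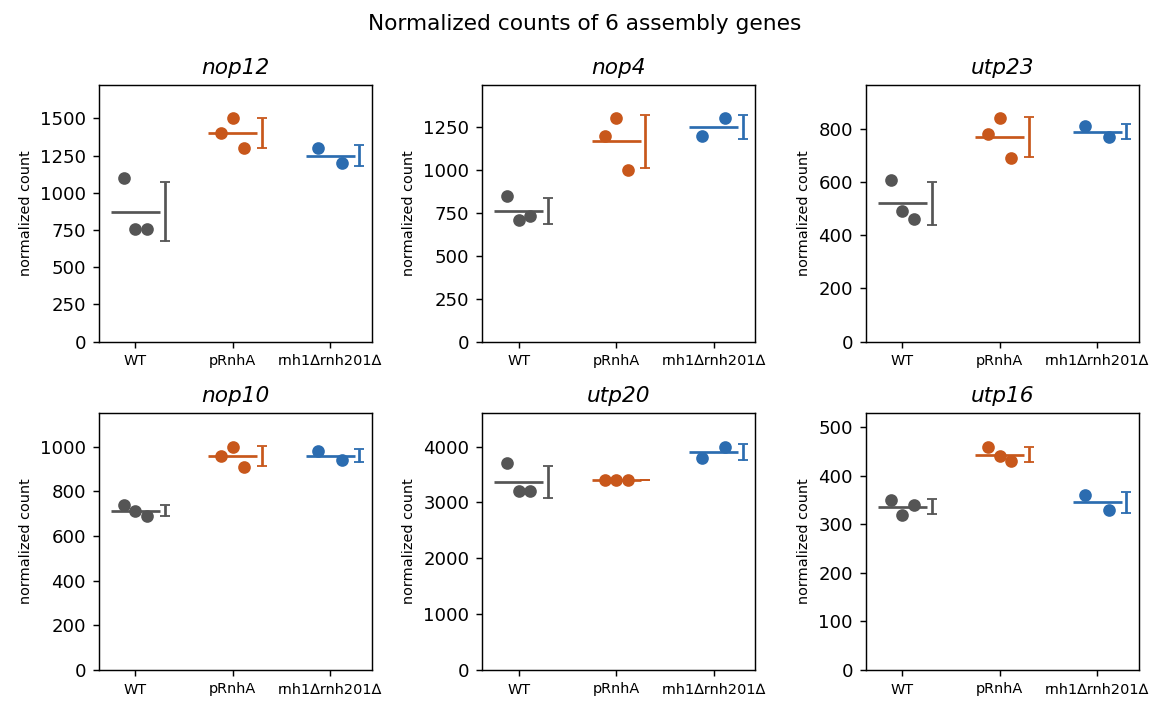
Normalized counts (vertical axes from 0) of 6 assembly genes in each library, with the mean as a horizontal line and the SD as a bar (3 WT, 3 pRnhA and 2 rnh1∆rnh201∆ libraries). In nop12, nop4, utp23 and nop10 both strains lie above WT, in utp20 pRnhA lies within WT, and in utp16 only pRnhA lies above WT.

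Loss of RNase H gave values in the same direction that limma did not call. In rnh1∆rnh201∆ against WT, 0 of the 32 assembly genes passed over all genes tested, where 0.294% of all genes were called, 0.0774% higher and 0.217% lower. At an unadjusted p under 0.05 there were 25 of the 32, against 21.3% of all genes. The median log2 fold change was 0.37, or 1.29-fold, against 0.011 for all genes, with all 32 above 0 against 52.2% of all genes. For 25 of the 32, both rnh1∆rnh201∆ libraries were above every WT library, against 15% of all genes. The authors' deposited table has 25 of the 32 past an adjusted p of 0.05 and higher in this strain, against 6.94% of its genes with a value.

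The number of genes called in rnh1∆rnh201∆ changed with the setting. Without WT replicate 1, 29 of the 32 genes were called, all higher, with 19.6% of all genes called and a median of 0.46. That library was the highest WT library for most of these genes, so leaving it out raises their differences by construction. With libraries scaled to equal totals 15 were called, beside 3.3% of all genes. With limma's array quality weights 30 were called, beside 35.6% of all genes. That default weighting stopped before it converged. A gene-by-gene weighting, added after this was seen, called 29, beside 23.4% of all genes. It gave WT replicate 1 a weight of 0.251 and WT replicate 3 one of 0.459, against 2.94 for WT replicate 2. Both comparisons against WT use the same 3 WT libraries, so their common direction is not independent evidence. The values nearest to a call were those of nop4 (log2 0.71, SE 0.12, limma adjusted p 0.0505), nop10 (0.43, SE 0.07, 0.0505) and noc3 (0.33, SE 0.06, 0.0505). For utp23 the log2 difference was 0.61 (limma adjusted p 0.0692), and for nop14 it was 0.59 (limma adjusted p 0.0751). Within the mat1-Mc libraries, which hold 1 rnh1∆rnh201∆ library, the median was 0.30, and in the mat2-Pc pair it was 0.49.

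**Figure D3:**
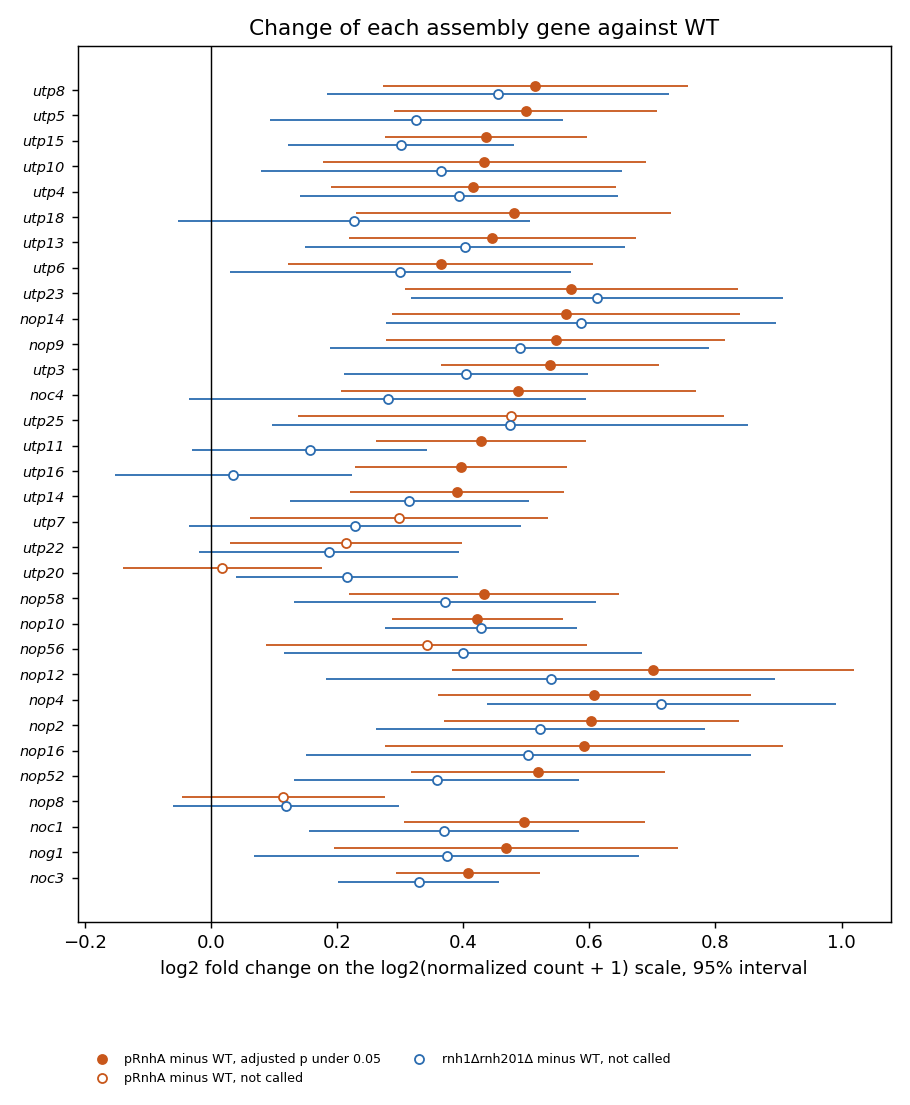
Log2 fold change against WT (horizontal axis, on the log2(normalized count + 1) scale) of each assembly gene in pRnhA (orange) and rnh1∆rnh201∆ (blue), with limma's 95% interval. Filled points have an adjusted p under 0.05: 26 of 32 are filled in pRnhA and 0 in rnh1∆rnh201∆.

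Compared directly, the 2 strains did not differ past the threshold in any of the 32 genes by limma, where 0.356% of all genes were called, 0.232% as higher in rnh1∆rnh201∆. At an unadjusted p under 0.05 there were 3 of the 32, against 12.5% of all genes, and 1 of the 3 was higher in rnh1∆rnh201∆, against 7.53% of all genes. The median log2 difference, rnh1∆rnh201∆ minus pRnhA, was -0.07, against 0.009 for all genes, and 7 of the 32 were above 0, against 51.8% of all genes. The 3 were utp16, utp11 and utp20, of which utp11 and utp20 were named after their values were seen. The count of utp16 was 350, 320 and 340 in WT, 460, 440 and 430 in pRnhA, and 360 and 330 in rnh1∆rnh201∆. The rnh1∆rnh201∆ libraries of utp16 overlapped with WT and lay below pRnhA, with a difference between the strains of -0.36 (95% interval -0.55 to -0.17, limma adjusted p 0.141). The count of utp11 was 560, 540 and 610 in WT, 760, 810 and 730 in pRnhA, and 660 and 610 in rnh1∆rnh201∆ (difference -0.27, 95% interval -0.46 to -0.09, limma adjusted p 0.237). For utp20 the difference was 0.20 (95% interval 0.02 to 0.37, limma adjusted p 0.345), with rnh1∆rnh201∆ the higher strain. For nop10 the interval was -0.15 to 0.16 and for nop12 it was -0.52 to 0.19.

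Other genes of the pathway were measured beside these. A list of ribosome assembly genes with other names matched 96 rows, and 6 of these (dim1, rrp1, drs1, lsg1, bop1 and bcp1) are annotated in fission yeast as proteins with other functions. Of the other 90, 73 (81.1%) were called higher in pRnhA and 0 lower, against 8.88% and 11.4% of all genes, with a median log2 fold change of 0.49. In rnh1∆rnh201∆ limma called 0 of the 90, 73 had an unadjusted p under 0.05 (81.1%, against 21.3% of all genes), and the median was 0.39. The largest called rises were those of nip7, lcp5 and dbp3, at 0.88, 0.83 and 0.83 (limma adjusted p 0.0261, 0.00997 and 0.00954). With the 6 kept in, 75 of 96 were called higher and 2 lower, the 2 being drs1 (an aspartate tRNA ligase) and bcp1 (a thioredoxin peroxidase), at -0.28 and -0.35 (limma adjusted p 0.0338 and 0.0262).

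RNA polymerase I, which makes the precursor rRNA, was represented by 16 subunit and initiation factor genes. In pRnhA 7 of these rose (43.8%, against 8.88% of all genes) and 0 fell, with a median of 0.43. In rnh1∆rnh201∆ limma called 0, 11 had an unadjusted p under 0.05 (68.8%, against 21.3% of all genes), and the median was 0.37. Every library of the strain was above every WT library for 10 of the 16 in pRnhA and 7 in rnh1∆rnh201∆, against 15.6% and 15% of all genes. Some lay the other way without being called. Every library of the strain was below every WT library for 2 in pRnhA and 3 in rnh1∆rnh201∆, against 18.1% and 13.9% of all genes. The largest called rises were in the subunit genes rpa49, ker1 and rpa12, at 0.67, 0.67 and 0.62 (limma adjusted p 0.0115, 0.00829 and 0.0162).

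The 141 cytosolic ribosomal protein genes had smaller median changes. In pRnhA 24 were called higher (17%, against 8.88% of all genes) and 2 lower (1.42%, against 11.4%), with a median log2 fold change of 0.16. In rnh1∆rnh201∆ limma called 0, 18 had an unadjusted p under 0.05 (12.8%, against 21.3% of all genes), and the median was 0.17. With equal library totals 51 were called higher (36.2%, against 19.5% of all genes) and 1 lower (0.709%, against 5.81%) in pRnhA. In rnh1∆rnh201∆ 5 were then called higher (3.55%, against 2.62% of all genes). The summed normalized count of the 141 genes was highest of all libraries in WT replicate 1, at 574330. It was 520170 to 529700 in pRnhA and 527710 to 542430 in rnh1∆rnh201∆. In the assembly genes, WT replicate 1 lay below every library of the 2 strains instead. No test of the difference between the 2 classes was run.

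A list of 15 general stress genes was measured beside these. In pRnhA 5 fell (33.3%, against 11.4% of all genes) and 0 rose, with a median of -0.37. In rnh1∆rnh201∆ limma called 0, 8 had an unadjusted p under 0.05 (53.3%, against 21.3% of all genes), and the median was -0.17. The list was mixed: 3 of the 15 were above 0 in pRnhA, up to 1.182, and 4 in rnh1∆rnh201∆, up to 1.499, none of them called. With equal library totals 2 were called lower (13.3%, against 5.81% of all genes) and 1 higher (6.67%, against 19.5%) in pRnhA. The stress regulator gene atf1 was at 4400, 5000 and 4900 in WT, 3500, 3300 and 3400 in pRnhA, and 3700 and 3900 in rnh1∆rnh201∆ (log2 -0.49 in pRnhA, limma adjusted p 0.00496). The list's summed normalized count was 111480 to 146306 in WT, 95130 to 102840 in pRnhA and 96100 to 99550 in rnh1∆rnh201∆. WT replicate 1 had the highest sum. Its median over the 15 genes was yet the lowest of the WT libraries, at -0.113 from the WT mean on the log2 scale. The part of the stress gene differences in the rise of the assembly genes was not tested.

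**Figure D4:**
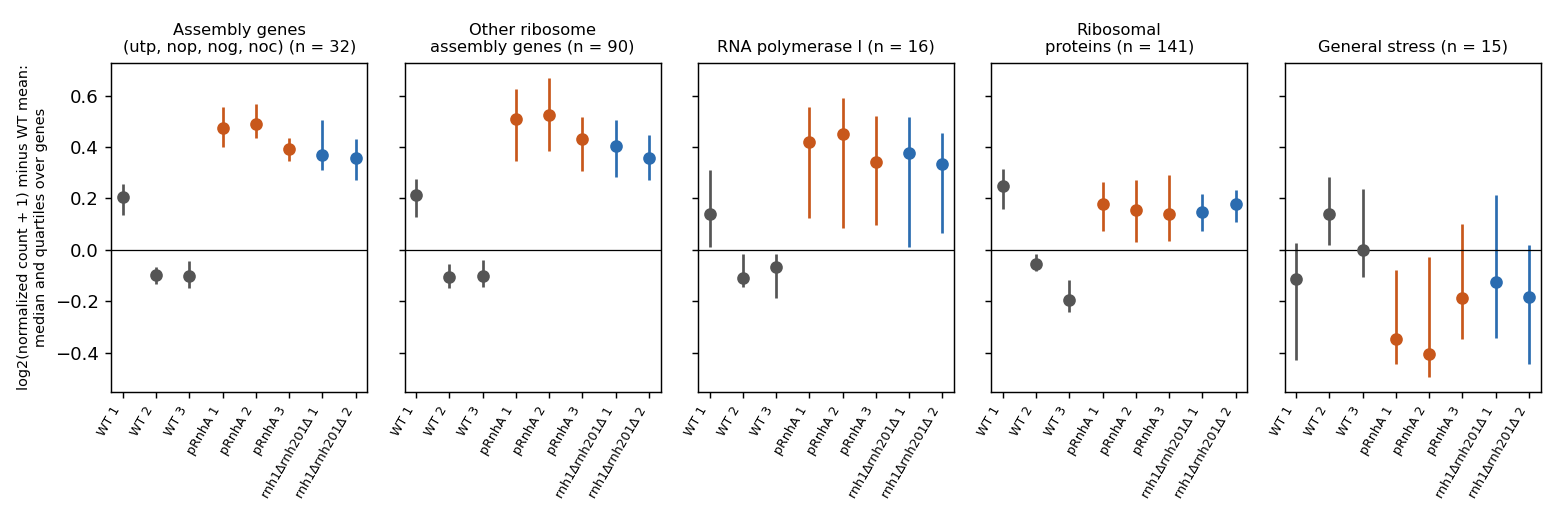
Median and quartiles, over the genes of each list, of log2(normalized count + 1) minus the WT mean in each of the 8 libraries (grey WT, orange pRnhA, blue rnh1∆rnh201∆). By median, the assembly genes, the other assembly genes and RNA polymerase I lie higher in both strains than in all WT libraries. By median, the ribosomal proteins lie highest in WT replicate 1, and the stress genes lie lower in pRnhA than in all WT libraries. For RNA polymerase I, the ribosomal proteins and the stress genes, the quartiles of WT replicate 1 overlap those of both strains.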

How the data were processed

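The RNA-seq table covers 8 libraries. Per the file headers, the authors deposited a DESeq2 normalized count for each library, with their own adjusted p-value and log2 fold change for each strain. The deposited normalized counts are whole numbers with at most 2 significant digits, so the authors' values were handled as a normalized score and no count model was used. Per the submitters' processing notes, TopHat2 2.0.5 and DESeq2 were used, with hg19 and ASM294v2 among the builds. The counting tool and strand setting are not given in the sources used here. Names and sequences came from RefSeq ASM294v3, so printed coordinates belong to that assembly alone.

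Limma-trend (limma 3.58.1, R 4.3.3) was applied to log2(value + 1) of 6456 genes whose mean reached 1. All 8 libraries entered the same 3-group model, which left 5 residual degrees of freedom, with Benjamini-Hochberg adjustment and a threshold of 0.05. The procedure was tested on simulated data. The planned design had no replicate block. Over 4532 genes whose mean reached 200, deviations from group means correlated at 0.344, 0.355 and 0.601 between same-numbered WT and pRnhA libraries, and at -0.167 and 0.385 between WT and rnh1∆rnh201∆. Libraries with the same mating-type transcript also correlated across numbers. WT replicate 1 correlated with pRnhA replicate 2 at 0.325, and WT replicate 2 with pRnhA replicate 1 at 0.374. WT replicate 3 correlated with rnh1∆rnh201∆ replicate 1, both with mat2-Pc, at 0.376. WT replicate 1 and rnh1∆rnh201∆ replicate 1, the pair at -0.167, share a number but not a mating-type transcript. WT replicate 3 and pRnhA replicate 3, the pair at 0.601, share both. The labels name no pairing, and whether libraries were paired by replicate number was not tested.

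The members and lists were chosen with earlier results of these data known. Genes named are called members, up to the 12 with the largest change per direction and comparison, the highest and lowest per kilobase in each role, the widest and narrowest WT spread, and up to 3 called genes per direction of the other lists. Any other member given with values was chosen after its values were seen, as was the removal of the 6 names with another function in fission yeast. Alternatives covered the pseudocount, the filter, library totals, the groups fitted, a replicate block, array weights, mating type and leaving out each library.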

Additional observations from a re-analysis of the deposited data

Results flagged for a closer look

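The deleted genes themselves separated both strains: rnh1 was lower in rnh1∆rnh201∆ than in pRnhA by a log2 difference of -3.37 (limma adjusted p 9.02e-05), and rnh201 by -5.42 (limma adjusted p 1.58e-05). Both changes follow the genotypes in the labels. None of the 32 assembly genes was called between the strains by limma, and 3 had an unadjusted p under 0.05. No group held 4 libraries, so outlying single libraries were not tested.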

How the results depend on the processing

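Over all alternatives run, no called assembly gene changed direction and none was called lower than WT. Counts depended more on the setting than sizes did. Leaving out each library in turn gave 4 to 30 assembly genes and 212 to 2173 of all genes called in pRnhA against WT, 0 to 29 and 3 to 1264 in rnh1∆rnh201∆ against WT, and 0 and 5 to 93 between the strains, with medians of 0.39 to 0.58, 0.31 to 0.46 and -0.11 to -0.05. In pRnhA, the mat1-Mc libraries gave 0 and 0 called, and a replicate block on the WT and pRnhA libraries, added after the data were seen, gave 1 and 135. The planned replicate block over all 8 libraries gave 29 and changed no other count of assembly genes. Array quality weights gave 3444 of all genes in pRnhA, 30 assembly genes and 2298 of all genes in rnh1∆rnh201∆, and 1 and 263 between the strains. That default weighting did not converge, so a gene-by-gene weighting was added after the data were seen; it gave 2696, then 29 and 1512, then 1 and 245. In rnh1∆rnh201∆, a pseudocount of 10 gave 3 and 52, no filter on low values 1 assembly gene, the mating-type term 1, equal library totals 15 and 213, and a fit of the 2 groups compared 4 of all genes. Between the strains, no filter gave 35 of all genes and the fit of 2 groups 72. Equal totals moved the median of all genes in pRnhA to 0.112, with the median of the assembly genes 0.45 above it. The uncalled values that changed sign were rnh1 in pRnhA (-0.046 in mat1-Mc libraries, -0.015 to 0.055 when each library was left out), utp20 in pRnhA (-0.017 in mat1-Mc libraries, -0.017 to 0.087), utp16 in rnh1∆rnh201∆ (-0.020 in mat1-Mc libraries, -0.028 to 0.097) and drs1 in rnh1∆rnh201∆ (0.009 with the default weights). The cause of these moves was not tested. Rounding to 2 significant digits and 2 or 3 libraries a group limit the precision.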
